A study of Mus musculus with 27 samples.

Results

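Whole hearts of mice at 1 year of age were compared with whole hearts at 14 weeks, with 3 samples at each age. These 6 samples, out of 27 in the series, were chosen by the tissue and the age in their labels, and every gene of the deposited count table belongs to the comparison. Of 22855 genes in that table, 17995 passed a filter on low counts and were tested. All the mice were of the C57Bl/6 strain, 14-week-old animals being the young adults and 1-year-old animals the group of advancing age. PolyA RNA of the heart tissue was sequenced without sorting cells. The labels name no treatment, sex, or hour of collection. The series' design text speaks of myocardial infarction, which no label of these samples and no RNA-Seq method of the study names, so an injury cannot be read from the sources for any of the 6 hearts. The study harvested these hearts, along with fibroblasts isolated from them, at 5 ages to ask how expression programs change from birth to 1.5 years.

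The adult heart is built mainly from cardiomyocytes, which contract through the sarcomere and burn mostly fatty acids in abundant mitochondria. Endothelial cells, fibroblasts, mural cells, and resident macrophages fill the space between them, and whole-heart RNA mixes all of these. The heart also keeps its own circadian clock, in which BMAL1 (Arntl) and CLOCK drive the Per, Cry, Nr1d, and Dbp genes, whose products close the loop, so that many cardiac transcripts rise and fall over each day. Aging of the heart is known for stiffening, for a low-grade rise of immune gene activity, and for a weakening of protein quality control.

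Each heart gave between 46091271 and 64467352 counts. Levels are given as CPM, the counts of a gene relative to the scaled size of its library (TMM scaling, which evens out differences in composition). The 3 pairs of samples at 14 weeks had rank correlations across genes between 0.977 and 0.984, those at 1 year between 0.964 and 0.974, and pairs of different ages between 0.955 and 0.959. The tissue label held up, since the summed level of 11 ventricular cardiomyocyte markers lay between 72763 and 85269 CPM in the 6 hearts. Sample 3 of 1 year stood apart. Its nuclear-retained RNA Neat1 was at 1385 CPM, against 515 and 575 in the other samples of 1 year. The sum of its atrial markers was 78.0 CPM, against 359 and 496.

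At 1 year, 175 genes differed from 14 weeks at an adjusted p under 0.05, which is 0.972% of the genes tested (edgeR's quasi-likelihood F test over all 15 hearts of the series, Benjamini-Hochberg adjustment). Of these, 70 rose (0.389%) and 105 fell (0.583%). A rise or fall below means that the gene passed this test, and a log2 fold change is that of 1 year over 14 weeks. The rises had a median log2 fold change of 1.14 and the falls of -0.85, beside a median of 0.05 over all genes tested. A change of at least 2-fold was found for 45 of the rises and 36 of the falls. By annotation, 167 of the 175 were protein-coding. The samples of the 2 ages did not overlap in any of the 175, where 26.4% of all genes tested had no overlap. Passing the test favors such separation, so a lack of overlap in called genes, here and below, is a description and no added support.

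The count differed widely between fits. At an unadjusted p under 0.05 stood 2531 genes. A fit of only the 6 hearts (called the 2-age fit below) called 1458 of 15674 genes (9.3%), 650 higher (4.15%) and 808 lower (5.16%), and these held 173 of the 175. Counts of calls within a gene list are to be read beside these shares, and beside 0.389% higher and 0.583% lower over all ages. A list with a single call can be near them. Its biological coefficient of variation was 42.9%, against 71.8% with all 5 ages. Scaling by library size alone left 57 rises and 30 falls and turned the share of rises from 40% to 65.5%. With it, the median over all genes moved from 0.05 to 0.12. Leaving out 1 heart left 22, 32, and 18 genes without the samples 1, 2, and 3 of 14 weeks, and 7, 14, and 77 without the samples 1, 2, and 3 of 1 year. Of the 175 genes, 6 passed without each of the 6 hearts in turn (Arntl, Dbp, C4b, Rcan1, Trp53i11, and Tcap), and 103 passed in none of those fits. No gene among the 175 changed direction under any setting tried.

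**Figure D1:**
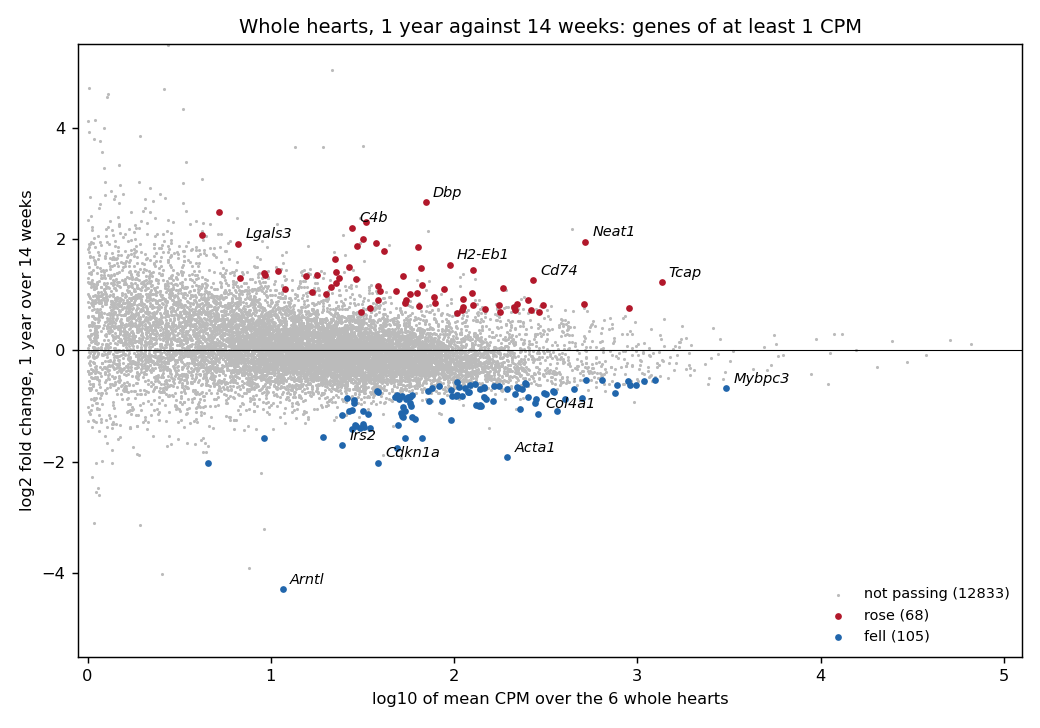
Each point is a gene of at least 1 CPM on average over the 6 hearts. The x axis gives the log10 of its mean CPM and the y axis its log2 fold change of 1 year over 14 weeks, with rises in red and falls in blue. Left out are 4989 genes under 1 CPM, of which 2 had passed, and 4 genes lie beyond the y axis. The falls reach from -0.53 down to -4.29, where Arntl stands alone, and Dbp and C4b are among the highest rises.

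Clock genes held both the largest fall and the largest rise among called genes whose mean reached 10 CPM at 14 weeks or 1 year. Arntl encodes BMAL1, the activator at the core of the clock, and lies at chr7:113207465-113314126, plus strand (GRCm38). It measured 20.9, 19.3, and 25.9 CPM at 14 weeks and 0.511, 2.05, and 0.822 CPM at 1 year. All 3 hearts of 1 year lay far under the lowest of 14 weeks. The means were 22.1 ± 3.42 CPM (SD, n = 3) and 1.13 ± 0.816 CPM (SD, n = 3), 19.5-fold apart (log2 fold change -4.29, SE 0.45, adjusted p = 3.78e-04). Dbp, a clock output gene that BMAL1 activates, lies at chr7:45705088-45710203, plus strand. It measured 21, 21.9, and 14.2 CPM at 14 weeks and 115, 123, and 124 CPM at 1 year, with no overlap and nearly the same level in each of the older hearts. Its mean rose 6.34-fold, from 19 ± 4.19 CPM (SD, n = 3) to 121 ± 5.22 CPM (SD, n = 3) (log2 fold change 2.66, SE 0.25, adjusted p = 2.01e-04).

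Among 19 clock genes, these were the only calls in the fit over all ages. In the 2-age fit 5 were higher and 5 lower, and 7 were higher and 6 lower without overlap of the samples, beside 12.2% and 14.2% of all genes tested. On the side of Arntl stood Npas2, which pairs with BMAL1 as CLOCK does, the repressor Cry1, and Nfil3, which binds the same D-box letters as DBP. Their log2 fold changes in the 2-age fit were -1.80 for Npas2, -1.17 for Nfil3, and -1.10 for Cry1. On the side of Dbp stood its relative Tef, the repressors Per2 and Per3, and Nr1d2, which encodes REV-ERBβ, a repressor of Arntl. Per3 measured 16.1, 16.4, and 5.85 CPM at 14 weeks and 29.4, 42.9, and 73.9 CPM at 1 year. Per2 measured 11.1, 7.14, and 12 CPM at 14 weeks and 27.5, 23.7, and 51.3 CPM at 1 year. Nr1d2 measured 59.8, 60.2, and 48.5 CPM at 14 weeks and 103, 118, and 120.1 CPM at 1 year, so its 3 older hearts formed a narrow band above the younger ones. Nfil3 measured 16.8, 22.4, and 26.9 CPM at 14 weeks and 14.2, 8.72, and 6.06 CPM at 1 year. The list as a whole had a median of 0.22, with members on both sides of 0. Left out in turn, no heart changed the list's counts of 1 rise and 1 fall, but without sample 3 of 1 year the median was 0.06.

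At 1.5 years Arntl was back at 27.5, 34, and 21.1 CPM and Dbp at 12.6, 18.9, and 17.1 CPM, close to the levels of 14 weeks. The labels give no hour of collection, so the hour and the age cannot be told apart for these genes. The same holds for every other gene of the comparison, including those below.

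**Figure D2:**
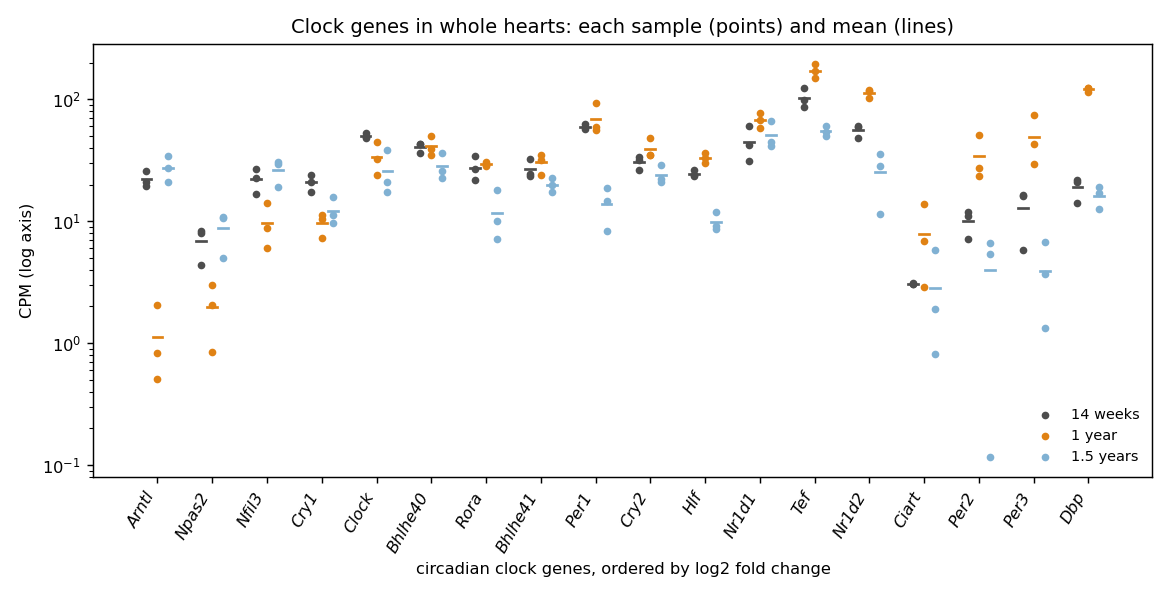
Each point is 1 whole heart and each short line the mean of 3, for the clock genes reported here, ordered by log2 fold change. The y axis is CPM on a log axis, with 14 weeks in black, 1 year in orange, and 1.5 years in blue. Genes at both ends have orange points apart from black ones, whereas Bhlhe40, Rora, and Bhlhe41 in the middle overlap.

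The letters that clock proteins bind can be read in the promoters of some of these genes. Promoter windows of 250 bases before to 50 after the start were taken from RefSeq (GRCm38.p6), and 16 of the 19 clock genes had one. The E-box CACGTG, read by BMAL1 with CLOCK, was in 5 of these windows (Bhlhe41, Ciart, Cry1, Per1, and Tef), where 7.15% of all 32851 windows and 11.0% of the 11823 genes tested with a window hold it. The D-box TTATGTAA, read by DBP, TEF, and NFIL3, was in the window of Per3 alone, in 2 copies (0.938% of all windows and 0.71% of those genes). The element TAGGTCA, read by REV-ERB receptors, was in those of Arntl and Nfil3 (2.61% of all windows and 2.23% of those genes). Both strands were searched. The windows below show a member of each kind, with the motif in capitals, 250 bases before the start or 30 bases around a site after it. In Nfil3 it is read on the opposite strand, as TGACCTA. A match is a string of letters and not a measured binding site.
Per3 (chr4:151044666-151044915, minus strand): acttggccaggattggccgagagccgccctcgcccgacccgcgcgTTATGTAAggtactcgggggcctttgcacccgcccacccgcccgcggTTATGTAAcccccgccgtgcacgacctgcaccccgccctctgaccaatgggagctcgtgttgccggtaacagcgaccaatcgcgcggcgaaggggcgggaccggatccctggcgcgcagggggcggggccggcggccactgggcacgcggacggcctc
Tef (chr15:81802423-81802672, plus strand): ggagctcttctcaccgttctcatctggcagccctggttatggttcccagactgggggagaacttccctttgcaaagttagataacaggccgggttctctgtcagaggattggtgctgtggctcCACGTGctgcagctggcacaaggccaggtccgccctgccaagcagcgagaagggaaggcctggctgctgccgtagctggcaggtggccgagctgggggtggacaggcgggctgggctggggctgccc
Nfil3 (chr13:52981040-52981289, minus strand): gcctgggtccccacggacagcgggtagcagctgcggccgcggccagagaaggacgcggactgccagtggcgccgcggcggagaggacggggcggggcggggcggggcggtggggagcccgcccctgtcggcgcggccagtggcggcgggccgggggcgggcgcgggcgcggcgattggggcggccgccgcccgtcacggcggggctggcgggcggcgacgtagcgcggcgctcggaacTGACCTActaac
Arntl (chr7:113207529-113207558, plus strand): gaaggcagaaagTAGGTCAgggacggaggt
Per3 and Tef were on the higher side in the 2-age fit, and Nfil3 and Arntl on the lower side. Of the other genes with an E-box, Cry1 was on the lower side, and Bhlhe41 overlapped between the ages. The E-box therefore did not go with a single direction.

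Several immune genes rose at 1 year, and C4b was the firmest of them. C4b encodes complement component C4, which acts in the classical complement pathway, and lies at chr17:34728380-34743882, minus strand. It measured 12, 8.71, and 8.81 CPM at 14 weeks and 38.3, 49.1, and 48.6 CPM at 1 year. The lowest older heart lay far above the highest younger one. The fold was 4.6 (log2 fold change 2.20, SE 0.27, adjusted p = 0.00132). Of 18 complement genes tested, C4b alone rose and none fell, and their median was 0.82. In the 2-age fit, where 4.15% of all genes were higher and 5.16% lower, 10 of 16 were higher and 1 lower. The subunits of C1q, which resident macrophages make, were among them, with C1qa at 62.3, 69.5, and 67.3 CPM at 14 weeks and 116, 108, and 126 CPM at 1 year (log2 fold change 0.82, SE 0.25, adjusted p = 0.129). C1qa itself did not pass in the fit over all ages.

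Antigen presentation genes stood higher still, with a mean at 1 year above that at 14 weeks in 22 of 22 and a median log2 fold change of 1.12. Of them, 2 rose, and 9 were higher in the 2-age fit, beside 0.389% and 4.15% of all genes. H2-Eb1, a β chain of MHC class II, measured 44.9, 48.4, and 52.1 CPM at 14 weeks and 123, 84.7, and 215 CPM at 1 year. Cd74, the chain that escorts MHC class II through the cell, measured 139, 169.9, and 166 CPM at 14 weeks and 341, 253, and 545 CPM at 1 year. The older hearts lay above all younger ones for both genes, but they also differed widely among themselves, with sample 3 of 1 year highest. The log2 fold changes were 1.54 (SE 0.28, adjusted p = 0.0201) for H2-Eb1 and 1.26 (SE 0.26, adjusted p = 0.0321) for Cd74. Without that sample the median of the list was 0.48 and none of its genes passed. Without sample 2 of 1 year 2 passed, and without any other heart none did. MHC genes are near-identical copies of each other in part, and reads shared between copies make the value of a single member uncertain.

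Interferon-stimulated genes stood at a median of 0.81 on the log2 scale, or 0.32 without sample 3 of 1 year. Of 32 genes, 30 had a higher mean at 1 year, 2 rose, and 5 were higher in the 2-age fit. Ifi27l2a was the most even, at 11.6, 13.4, and 12.4 CPM at 14 weeks and 32.6, 32.6, and 33.5 CPM at 1 year (log2 fold change 1.40, SE 0.25, adjusted p = 0.0193). Its relative Ifi27 measured 15, 15.7, and 10.5 CPM at 14 weeks and 26.1, 27.7, and 47 CPM at 1 year, without overlap (log2 fold change 1.29, SE 0.26, adjusted p = 0.031). Both belong to a family of small proteins that interferon induces. Only 0 or 1 of the list passed when a heart was left out.

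The other immune lists had few or no calls. Of 27 chemokine and cytokine genes none passed, the median was 0.52, and 5 of 24 were higher in the 2-age fit. Without sample 3 of 1 year this median was 0.06. Among 9 acute phase and lipocalin genes none passed (median 0.71), with 5 higher and 1 lower in the 2-age fit. The galectin genes Lgals3 and Lgals4 rose. Lgals3, which activated macrophages express strongly, measured 2.69, 3.25, and 2.37 CPM at 14 weeks and 9.52, 10.2, and 11.7 CPM at 1 year (log2 fold change 1.92, SE 0.37, adjusted p = 0.0298). Lgals4 measured 26.9, 40.2, and 15.5 CPM at 14 weeks and 65.7, 84.8, and 149 CPM at 1 year (log2 fold change 1.86, SE 0.37, adjusted p = 0.031). S100a9, a neutrophil gene, had 0, 0, and 1 counts at 14 weeks and 56, 23, and 11 at 1 year, and passed the test at these low counts.

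Marker genes of immune cells moved with these lists. The 12 macrophage markers tested all had higher means at 1 year, with a median of 0.66 and 5 higher in the 2-age fit. Their sum was between 325 and 357 CPM at 14 weeks and between 493 and 572 at 1 year. The 14 lymphocyte markers summed to between 14.1 and 20.2 CPM at 14 weeks and between 27.9 and 37.4 at 1 year, and none of them passed in either fit. In bulk tissue, more cells of a type and more RNA per cell cannot be told apart, here or for any list below, and the part of the markers in the immune lists was not tested.

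Chaperone genes were lower at 1 year. Of 23 heat shock and chaperone genes 5 fell and none rose, 22 had a lower mean, and 20 were lower without overlap of the ages, beside 14.2% of all genes. The median log2 fold change was -0.58. The 2-age fit called 17 of them lower and none higher, beside 5.16% and 4.15% of all genes. Leaving out a heart kept the median between -0.61 and -0.47, while 1, 2, and 1 genes passed without the samples 1, 2, and 3 of 14 weeks, and 0, 1, and 1 without those of 1 year. Hsph1, a nucleotide exchange factor of the HSP70 machine, measured 64, 68.9, and 109 CPM at 14 weeks and 25.5, 28.9, and 27.1 CPM at 1 year (log2 fold change -1.57, SE 0.23, adjusted p = 0.00747). The small heat shock protein gene Hspb1 measured 157, 183, and 208 CPM at 14 weeks and 110.1, 88, and 79.3 CPM at 1 year (log2 fold change -0.98, SE 0.19, adjusted p = 0.0255). Both sets of older hearts lay wholly below the younger ones.

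Hspa5 encodes BiP, the main chaperone of the endoplasmic reticulum. It measured 639, 483, and 809 CPM at 14 weeks and 339, 340.4, and 387 CPM at 1 year, a fall with a wide spread among the younger hearts (log2 fold change -0.86, SE 0.18, adjusted p = 0.0368). Bag3, which links HSP70 to autophagy and to the sarcomere's Z-disc, measured 398, 442, and 452 CPM at 14 weeks and 249.8, 253, and 275 CPM at 1 year (log2 fold change -0.73, SE 0.15, adjusted p = 0.031). The mitochondrial HSP70 gene Hspa9 measured 708, 765, and 791 CPM at 14 weeks and 532, 511, and 528 CPM at 1 year (log2 fold change -0.53, SE 0.11, adjusted p = 0.0386). These genes serve different compartments of the cell, and in each the older hearts lay below all younger ones. The stress-induced HSP70 genes Hspa1a and Hspa1b did not pass over all ages. Hspa1a ranged from 2.01 to 28.4 CPM among the young hearts and from 0.806 to 1.08 at 1 year.

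Promoter windows were at hand for 18 of the 23 genes. The heat shock element GAANNTTCNNGAA was in 3 of them (Hspd1, Hspe1, and Hsph1) and the endoplasmic reticulum stress element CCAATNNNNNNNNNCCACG in 4 (Calr, Hsp90b1, Hspa5, and Pdia6), against 0.603% and 0.119% of all windows, and 0.584% and 0.161% of the genes tested with a window. Both strands were searched. The window of Hspa5 before its start and the 30 bases around the element of Hsph1 after its start, where it is read on the opposite strand, show one of each, again from RefSeq on GRCm38.p6.
Hspa5 (chr2:34771840-34772089, plus strand): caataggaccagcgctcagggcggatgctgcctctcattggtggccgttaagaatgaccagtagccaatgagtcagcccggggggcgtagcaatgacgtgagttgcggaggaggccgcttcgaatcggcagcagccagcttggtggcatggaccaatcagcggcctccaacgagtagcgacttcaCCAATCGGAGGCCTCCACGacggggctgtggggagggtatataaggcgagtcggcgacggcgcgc
Hsph1 (chr5:149636287-149636316, minus strand): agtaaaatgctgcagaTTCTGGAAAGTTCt
Hspd1 and Hspe1, which share a promoter, did not pass in the fit over all ages.

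Cdkn1a, Irs2, and Sik1 were among the 8 largest falls. Cdkn1a encodes p21, an inhibitor of the cell cycle induced by p53 and by other stress signals. It measured 63.9, 36.4, and 84.6 CPM at 14 weeks and 15.5, 16.6, and 13.5 CPM at 1 year (log2 fold change -2.02, SE 0.32, adjusted p = 0.0104). Irs2 and Irs1 encode the adaptor proteins of the insulin receptor. Irs2 measured 30.9, 48, and 33.1 CPM at 14 weeks and 9.97, 11.6, and 12.9 CPM at 1 year (log2 fold change -1.70, SE 0.27, adjusted p = 0.00913). Irs1 measured 35.4, 34.9, and 53.9 CPM at 14 weeks and 15.8, 16.6, and 16.7 CPM at 1 year (log2 fold change -1.34, SE 0.24, adjusted p = 0.0201). For all 3 genes the older hearts formed a tight group below the younger ones.

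The kinase gene Sik1, which cAMP signalling induces, measured 97.7, 113, and 90.3 CPM at 14 weeks and 36.1, 28, and 36.5 CPM at 1 year (log2 fold change -1.58, SE 0.25, adjusted p = 0.00913). Dusp1, a phosphatase that switches off MAP kinases, measured 79.9, 94.4, and 71.6 CPM at 14 weeks and 38.6, 34.1, and 34.3 CPM at 1 year (log2 fold change -1.20, SE 0.18, adjusted p = 0.00859). Its relative Dusp8 measured 71.9, 71.1, and 69.4 CPM at 14 weeks and 28, 28.2, and 27.7 CPM at 1 year (log2 fold change -1.34, SE 0.28, adjusted p = 0.0341). The ages were apart in each, and Dusp8 varied least within an age. Rcan1, an inhibitor of calcineurin that calcineurin itself induces, measured 138, 120.0, and 146 CPM at 14 weeks and 55.7, 54.3, and 60.5 CPM at 1 year (log2 fold change -1.25, SE 0.15, adjusted p = 0.00132). Trp53i11, named for its induction by p53, measured 50.3, 43.9, and 56.1 CPM at 14 weeks and 18, 18.7, and 20.4 CPM at 1 year (log2 fold change -1.40, SE 0.15, adjusted p = 5.08e-04). Rcan1 and Trp53i11 passed under all 20 alternatives, as did Arntl, Dbp, and C4b.

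Further falls were Errfi1, a feedback inhibitor of the EGF receptor, Phlda1, and Tnfrsf12a, the receptor of the cytokine TWEAK. Errfi1 measured 31.7, 57.9, and 46.9 CPM at 14 weeks and 16.2, 17.4, and 21 CPM at 1 year (log2 fold change -1.32, SE 0.26, adjusted p = 0.0298). Phlda1 measured 38.5, 60.1, and 41.8 CPM at 14 weeks and 18.5, 15.6, and 19.7 CPM at 1 year (log2 fold change -1.38, SE 0.20, adjusted p = 0.00747). Tnfrsf12a measured 44.1, 40, and 42.2 CPM at 14 weeks and 14.7, 12.3, and 22.6 CPM at 1 year (log2 fold change -1.35, SE 0.26, adjusted p = 0.0273). None of them overlapped between the ages. A list of 20 kinase feedback and growth factor response genes, put together after these values were seen, had 12 falls and a median of -1.22, and it is a description only. Without the samples 1, 2, and 3 of 14 weeks it had 6, 7, and 6 falls, and without those of 1 year 1, 1, and 8. The immediate early genes had 1 fall of 23 (Dusp1), a median of -0.61, and 1 higher and 6 lower in the 2-age fit. The glucocorticoid-responsive genes had 3 falls of 15 (Dusp1, Cdkn1a, and Errfi1), between 0 and 3 with 1 heart left out, and a median of -0.40. Of 21 senescence and cell cycle inhibitor genes, 1 fell (Cdkn1a) and the median was 0.05. Cdkn2a, the p16 gene that marks senescent cells, had 0 counts in each heart of 14 weeks and 23, 2, and 37 at 1 year, and did not pass.

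The cAMP response element TGACGTCA, read by CREB, is in 1.79% of all promoter windows and in that of Dusp1, shown here for the 250 bases before its start (RefSeq, GRCm38.p6) with the element in capitals.
Dusp1 (chr17:26508473-26508722, minus strand): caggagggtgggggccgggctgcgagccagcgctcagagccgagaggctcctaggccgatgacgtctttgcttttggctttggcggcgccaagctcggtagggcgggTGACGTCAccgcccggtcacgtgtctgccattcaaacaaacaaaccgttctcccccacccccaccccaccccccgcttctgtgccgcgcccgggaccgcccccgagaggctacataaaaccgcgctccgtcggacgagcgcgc
Among the 105 falls 83 had a window and 7.23% of these held the element on either strand, beside 4.35% of 46 windows of rises and 3.31% of 11823 windows of genes tested.

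Contractile genes moved in both directions. Acta1, the skeletal α-actin that the heart expresses under load and in early life, measured 293, 448, and 182 CPM at 14 weeks and 79.9, 60.7, and 104 CPM at 1 year (log2 fold change -1.91, SE 0.33, adjusted p = 0.0158). Tcap encodes telethonin, which caps titin at the Z-disc, and measured 856, 802, and 773 CPM at 14 weeks and 2001, 1848, and 1845 CPM at 1 year. It rose 2.34-fold (log2 fold change 1.23, SE 0.17, adjusted p = 0.00605) and passed without each heart in turn. Pdlim3, a Z-disc protein of the α-actinin-binding family, measured 10.5, 9.04, and 10.5 CPM at 14 weeks and 28.5, 27.5, and 21.1 CPM at 1 year (log2 fold change 1.36, SE 0.20, adjusted p = 0.00747). Mybpc3, the myosin-binding protein C of the heart, measured 3624, 3873, and 3772 CPM at 14 weeks and 1980.1, 2429, and 2617 CPM at 1 year (log2 fold change -0.68, SE 0.14, adjusted p = 0.0358). The ages were apart in all of these, with the widest spread in Acta1 of the young hearts. Over 31 sarcomere genes there were 1 rise, 2 falls, and a median of -0.08. The falls numbered between 0 and 3 when a heart was left out.

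The myosin heavy chains did not pass. Myh7, the slow β-myosin, measured 191, 138, and 98.6 CPM at 14 weeks and 72.6, 64.7, and 308 CPM at 1 year (log2 fold change 0.05, SE 0.47, adjusted p = 0.992). Only its sample 3 of 1 year lay above the younger hearts. The natriuretic peptide genes, made by stretched cardiomyocytes, went opposite ways without passing. Nppb measured 209, 274, and 188 CPM at 14 weeks and 64.3, 88.8, and 104 CPM at 1 year (log2 fold change -1.38, SE 0.35, adjusted p = 0.0717). Nppa measured 105, 117, and 88.2 CPM at 14 weeks and 202, 257, and 44.2 CPM at 1 year (log2 fold change 0.70, SE 0.54, adjusted p = 0.646). The older hearts lay below all younger ones for Nppb, and on both sides of them for Nppa. The summed atrial markers, of which Nppa is one, ranged from 103 to 203 CPM at 14 weeks and from 78.0 to 496 at 1 year, and how much atrium each sample held was not tested. Of 16 natriuretic peptide and load-responsive genes 2 fell, with a median of -0.23. Without sample 3 of 1 year 3 fell and the median was -0.56, and over all hearts left out in turn it lay between -0.56 and -0.16, with 1 to 3 falls.

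Of 27 ion channel genes 2 fell and none rose, beside 0.583% and 0.389% of all genes tested, with a median of -0.44. In the 2-age fit 9 were lower and none higher, beside 5.16% and 4.15% of all genes. With any 1 heart left out neither fall passed, and the median lay between -0.47 and -0.38. Kcna5, the potassium channel of the ultrarapid current, measured 49.3, 34, and 36.9 CPM at 14 weeks and 10.8, 18.2, and 16.5 CPM at 1 year (log2 fold change -1.40, SE 0.26, adjusted p = 0.0242). Gja1, which encodes connexin 43 of the gap junctions, measured 413, 455, and 442 CPM at 14 weeks and 244, 259, and 279 CPM at 1 year (log2 fold change -0.74, SE 0.16, adjusted p = 0.0395). Casq2, the calcium store protein calsequestrin, measured 1012, 1127, and 1045 CPM at 14 weeks and 761, 721, and 687 CPM at 1 year and was the 1 fall among 21 calcium handling genes (log2 fold change -0.55, SE 0.13, adjusted p = 0.0466), which did not pass with any 1 heart left out. These 3 genes had no overlap between the ages. The calcium list had a median of -0.22 and 8 genes lower in the 2-age fit. The pump gene Atp2a2 missed the threshold over all ages, with a log2 change of -0.60 (SE 0.14, adjusted p = 0.0567). Of 22 cardiac transcription factor genes none passed, the median was -0.42, and 9 were lower in the 2-age fit. The summed level of the ventricular markers was between 76416 and 85269 CPM at 14 weeks and between 72763 and 74838 at 1 year, without overlap. Its part in the values of these lists was not tested.

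Across the lists of fuel genes 4 genes fell and Pfkfb1 rose. Sdha, a subunit of succinate dehydrogenase, measured 1416, 1434, and 1568 CPM at 14 weeks and 989, 1061, and 1013 CPM at 1 year (log2 fold change -0.53, SE 0.12, adjusted p = 0.0399). Oxct1, the enzyme that lets the heart burn ketone bodies, measured 1196, 1334, and 1321 CPM at 14 weeks and 918, 913, and 802 CPM at 1 year (log2 fold change -0.55, SE 0.12, adjusted p = 0.0402). Slc16a1, the carrier MCT1 of lactate and ketone bodies, measured 254, 284, and 288 CPM at 14 weeks and 179, 149.6, and 191 CPM at 1 year (log2 fold change -0.67, SE 0.14, adjusted p = 0.0368). The ages did not overlap in any of them. Acsl1, which activates fatty acids for oxidation, fell as well (log2 fold change -0.63, SE 0.14, adjusted p = 0.0408), as the 1 call among 35 fatty acid oxidation genes (median -0.09). The citric acid cycle genes had 1 fall of 21 and a median of -0.24, with 7 lower in the 2-age fit (5.16% of all genes). Oxct1 and Slc16a1 were the 2 falls among 9 creatine kinase and ketone body genes (median -0.23). The glycolysis list had 1 rise of 26, Pfkfb1, and a median of -0.21. Pfkfb1 sets the level of a glycolytic activator and measured 11.9, 11.7, and 9.03 CPM at 14 weeks and 34.2, 38.8, and 28.8 CPM at 1 year (log2 fold change 1.65, SE 0.37, adjusted p = 0.0449). With any 1 heart left out, no gene of the fatty acid oxidation, citric acid cycle, glycolysis, or creatine kinase and ketone body lists passed. A list of mitochondrial fusion, import, and membrane genes, put together after these values were seen, had 8 falls of 20 and a median of -0.52, with 0 or 1 fall when 1 heart was left out.

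The 2 chains of type IV collagen, the network of basement membranes, fell together. Col4a1 measured 449, 313, and 424 CPM at 14 weeks and 164, 163, and 211 CPM at 1 year (log2 fold change -1.14, SE 0.22, adjusted p = 0.0305). Col4a2 measured 336, 251, and 344 CPM at 14 weeks and 124, 131, and 191 CPM at 1 year (log2 fold change -1.06, SE 0.22, adjusted p = 0.0341). No sample of 1 year reached the lowest one of 14 weeks in either gene. The genes lie head to head on chromosome 8, Col4a1 on the minus strand and Col4a2 on the plus strand, and their promoter windows share 78 bases. They were the 2 falls among 39 collagen genes, which had no rise and a median log2 fold change of -0.19, and neither passed with scaling by library size alone. Between 0 and 2 passed when a heart was left out. Serpinh1 encodes HSP47, the chaperone that folds collagen in the endoplasmic reticulum, and measured 299, 318, and 362 CPM at 14 weeks and 187, 188, and 171 CPM at 1 year (log2 fold change -0.84, SE 0.14, adjusted p = 0.015). Ckap4, a membrane protein of the endoplasmic reticulum, measured 45.7, 40.8, and 46.8 CPM at 14 weeks and 13.4, 18.8, and 18.9 CPM at 1 year (log2 fold change -1.38, SE 0.20, adjusted p = 0.00747). P4ha1, a subunit of the enzyme that hydroxylates collagen, fell too (log2 fold change -1.13, SE 0.25, adjusted p = 0.0433). These 3 were the falls among 16 genes of collagen folding and secretion, a list chosen after the values were seen, which had a median of -0.10 and between 0 and 2 falls with 1 heart left out.

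The fibrillar collagens that the study followed did not pass. Their log2 fold changes were -0.40 (SE 0.16, adjusted p = 0.264) for Col1a1, -0.03 (SE 0.19, adjusted p = 0.986) for Col1a2, and -0.33 (SE 0.21, adjusted p = 0.513) for Col3a1. The fibroblast markers summed to between 1005 and 1226 CPM at 14 weeks and between 1052 and 1537 at 1 year. The other genes that the study names for matrix turnover did not pass either. They were Mmp3 at 0.36 (SE 0.96, adjusted p = 0.953), Mmp19 at 0.51 (SE 0.63, adjusted p = 0.837), Timp1 at 0.49 (SE 0.58, adjusted p = 0.825), Timp2 at 0.22 (SE 0.19, adjusted p = 0.702), and the TGF-β pathway genes Smad1 at -0.52 (SE 0.24, adjusted p = 0.335) and Tgfbr1 at 0.27 (SE 0.56, adjusted p = 0.928). These SEs take in the spread at all 5 ages and leave room for changes of moderate size in several of them. In the 2-age fit the SEs were 0.31 for Mmp3, 0.20 for Tgfbr1, 0.18 for Timp2, and 0.24 for Smad1. They were 0.60 for Mmp19 and 0.71 for Timp1, and none of these genes passed there either. Mmp23 was the 1 rise among 20 MMP and TIMP genes (median 0.36) and measured 5.31, 4.05, and 5.85 CPM at 14 weeks and 14.2, 14.2, and 11.5 CPM at 1 year (log2 fold change 1.39, SE 0.29, adjusted p = 0.0321). With any 1 heart left out none of that list passed, and its median lay between 0.13 (without sample 3 of 1 year) and 0.35. Fras1, a basement membrane protein gene, had 0 counts in each heart of 14 weeks and 69, 19, and 9 at 1 year, and passed at these low counts. Of 36 other matrix genes none passed (median 0.16), nor did any of 34 TGF-β and BMP pathway genes (median -0.14).

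Of 87 ribosomal protein genes tested, 14 rose and none fell, and the median log2 fold change was 0.56. The 2-age fit called 61 of 85 higher, beside 4.15% of all genes. Without sample 3 of 1 year 8 rose, and without any other heart none did, although the median stayed between 0.50 and 0.65. Rpl34 measured 82.1, 69.4, and 78 CPM at 14 weeks and 165, 157, and 116 CPM at 1 year (log2 fold change 0.93, SE 0.18, adjusted p = 0.0297). Rps24 measured 182, 174, and 169 CPM at 14 weeks and 366, 339, and 279.7 CPM at 1 year (log2 fold change 0.91, SE 0.18, adjusted p = 0.031). Rps12 measured 170.1, 152, and 155 CPM at 14 weeks and 295, 296, and 259 CPM at 1 year (log2 fold change 0.84, SE 0.17, adjusted p = 0.031). Sample 3 of 1 year was the lowest of the older hearts in each and still above all younger ones. Ribosomal protein genes have many processed pseudogenes, and reads shared with these make single values uncertain.

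Nuclear genes of the respiratory chain leaned the same way, with 67 of 81 higher in the mean and a median of 0.29, but only 1 rose (Cox7b) and 1 fell (Sdha), and with 1 heart left out 0 or 1 rose and none fell. Cox7b, a small subunit of cytochrome c oxidase, measured 688, 674, and 644 CPM at 14 weeks and 1216, 1316, and 855 CPM at 1 year (log2 fold change 0.76, SE 0.16, adjusted p = 0.0368).

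Both of these lists hold short transcripts, and the change at 1 year went with transcript length. Across 13325 genes of at least 1 CPM, the rank correlation of the log2 fold change with length was -0.25, a description in which genes are not independent. With 1 heart left out it ranged from -0.17 to -0.31. From the shortest 10% of the genes (median 917 bases) to the longest 10% (8280 bases), the median log2 fold change ran from 0.33 to -0.16. The genes that rose had a median length of 1904 bases, those that fell 4104, and all genes tested 3013. With an offset for length in the fit, 29 genes rose and 114 fell, and the median over all genes was -0.10. The median of the ribosomal list was then 0.20 with none called, and that of the respiratory chain turned to -0.12. With the offset, the median of the antigen presentation list moved from 1.12 to 0.79, with 1 rise in place of 2, and that of complement from 0.82 to 0.64. The chaperones moved from -0.58 to -0.84 and the ion channels from -0.44 to -0.55.

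**Figure D3:**
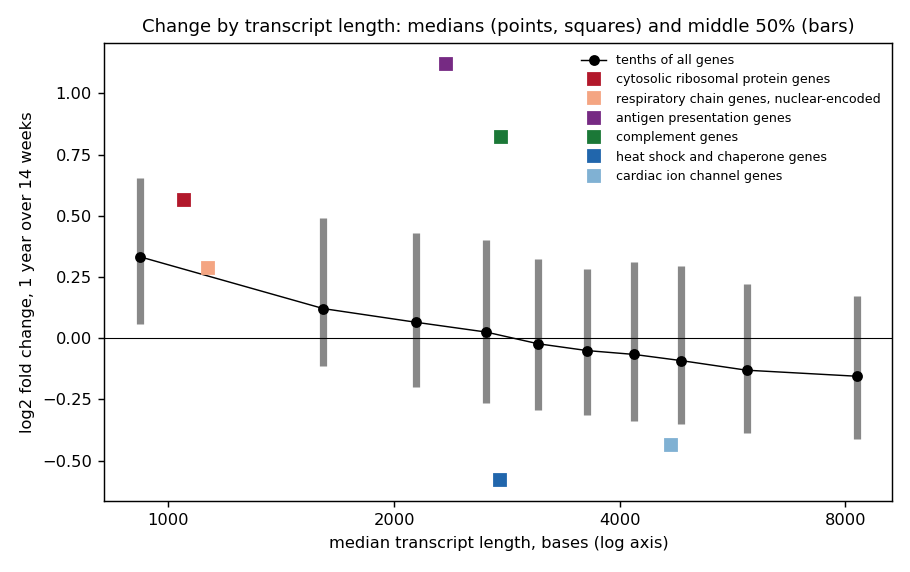
Black points are 10 equal groups of 13325 genes ordered by transcript length, on a log axis in bases, with the median log2 fold change on the y axis and bars for the middle 50% of genes. Colored squares are gene lists at their own median length. The medians fall from 0.33 to -0.16 with length, ribosomal protein genes (0.56) lie above the shortest group, and antigen presentation, complement, and chaperone genes lie far from the line.

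Endothelial genes were split. Of 10 markers, Vwf, Egfl7, and Fabp4 rose and none fell, while Kdr and Cdh5 were lower in the 2-age fit, and the median was -0.12. Only 0 or 1 passed when a heart was left out. The markers summed to between 1111 and 1171 CPM at 14 weeks and between 1363 and 1540 at 1 year. Much of this difference lay in Fabp4, whose mean was 369 CPM at 14 weeks and 657 CPM at 1 year. Lower means at 1 year were found in 6 of the 10 markers. Vwf, which encodes von Willebrand factor, measured 47.9, 55, and 99.7 CPM at 14 weeks and 169, 151, and 234 CPM at 1 year (log2 fold change 1.45, SE 0.29, adjusted p = 0.031). Fabp4 carries fatty acids in capillary endothelium and in fat cells, and measured 384, 360.0, and 363 CPM at 14 weeks and 666, 643, and 661 CPM at 1 year (log2 fold change 0.83, SE 0.14, adjusted p = 0.015). Egfl7 measured 30.1, 45.9, and 38.4 CPM at 14 weeks and 68.4, 71.6, and 74.3 CPM at 1 year (log2 fold change 0.91, SE 0.20, adjusted p = 0.0402). The ages did not overlap in any of them. The fat cell genes Lep, Plin1, Cidec, Retn, and Cfd are absent from the count table, so their level is not known. Inmt, a methyltransferase gene, had the largest rise after Dbp among protein-coding genes whose mean reached 10 CPM at one of the ages. It measured 12.7, 10.6, and 10 CPM at 14 weeks and 77.6, 61.5, and 25.7 CPM at 1 year (log2 fold change 2.31, SE 0.35, adjusted p = 0.00803), with sample 3 of 1 year closest to the younger hearts.

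The linked imprinted genes Igf2, a fetal growth factor, and H19, its noncoding neighbor, both rose. Igf2 measured 25.2, 29.1, and 35.1 CPM at 14 weeks and 105, 59.9, and 62.1 CPM at 1 year (log2 fold change 1.34, SE 0.21, adjusted p = 0.00913). H19 measured 31.1, 28, and 44.8 CPM at 14 weeks and 131, 75, and 84.2 CPM at 1 year (log2 fold change 1.48, SE 0.24, adjusted p = 0.01). Sample 1 of 1 year was the highest for both, and all samples of 1 year lay above those of 14 weeks. Of 17 imprinted growth genes these were the 2 calls, and between 0 and 2 passed with 1 heart left out.

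Long noncoding RNAs of the nucleus were higher at 1 year. Neat1, the scaffold of paraspeckles, measured 236, 226, and 177 CPM at 14 weeks and 515, 575, and 1385 CPM at 1 year (log2 fold change 1.95, SE 0.44, adjusted p = 0.0466). Firre measured 14.2, 14.6, and 9.14 CPM at 14 weeks and 29.8, 49.1, and 59.4 CPM at 1 year (log2 fold change 1.87, SE 0.41, adjusted p = 0.0402). The imprinted antisense RNA Kcnq1ot1 measured 1.23, 2.18, and 1.36 CPM at 14 weeks and 7.91, 11.1, and 7.62 CPM at 1 year (log2 fold change 2.48, SE 0.55, adjusted p = 0.042). Malat1, the most abundant nuclear RNA of many tissues, measured 130.5, 255, and 96.7 CPM at 14 weeks and 601, 512, and 1056 CPM at 1 year and missed the threshold (log2 fold change 2.17, SE 0.56, adjusted p = 0.0737). In Neat1, Firre, and Malat1 sample 3 of 1 year was the highest of all. Mhrt, which is antisense to Myh7, rose as well (log2 fold change 1.11, SE 0.24, adjusted p = 0.0408). Reads of Mhrt and Kcnq1ot1 cannot be told apart from those of the genes on the other strand, since the counting is not stated to use strand. A list of 10 nuclear-retained RNAs chosen after these values were seen had 4 rises and a median of 1.51, none passed with any 1 heart left out, and they summed to between 372 and 615 CPM at 14 weeks against 1293, 1298, and 2753 at 1 year. Of 22 splicing factor and cold-inducible genes, also chosen afterwards, 4 rose (median 0.72), and 0 or 1 with 1 heart left out. They included Rbm3, the RNA-binding protein induced by cold, at 45.7, 35.5, and 32.5 CPM at 14 weeks and 78.6, 80.1, and 72.2 CPM at 1 year (log2 fold change 1.02, SE 0.16, adjusted p = 0.00859). At 1.5 years the nuclear-retained RNAs summed to between 382 and 786 CPM. The splicing list summed to between 1201 and 1517 CPM at 14 weeks, 2043 and 2605 at 1 year, and 1180 and 1565 at 1.5 years. In both sums the hearts of 1 year lay above those of 14 weeks and of 1.5 years.

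The remaining lists had no call in either direction unless named here. Their median log2 fold changes were 0.22 for 29 antioxidant genes (-0.02 with the length offset), 0.05 for 74 mitochondrial ribosomal protein genes (-0.14 with the offset), 0.09 for 38 proteasome genes, and 0.01 for 17 genes of the integrated stress response. Cell cycle genes were at -0.19 (38 genes), cholesterol synthesis at -0.32 (24), autophagy and lysosome genes at -0.13 (24), and blood pressure and adrenergic receptor genes at -0.19 (23). Chromatin genes were at 0.00 (21), replication-dependent histones at 0.06 (21), genes of the mitochondrial genome at 0.16 (26), and immunoglobulin genes at 0.72 (5). The insulin-like growth factor and thyroid list held Igf2, Irs1, and Irs2 and had a median of -0.06 over 19 genes, which ranged from -0.18 to 0.12 with 1 heart left out, with 0 or 1 rise and 0 to 2 falls. Among marker lists of other cells, the medians were 0.02 for smooth muscle cells and pericytes (10 genes), 0.88 for epicardium (6), 0.64 for Schwann and neural cells (7), 0.55 for red cells (6), 1.41 for skeletal muscle (5), and -0.06 for brown fat cells (5). The atrial markers stood at 1.47 (8 genes) and the sex-linked genes at 0.60 (5). Fabp4 was the 1 rise among 3 white fat cell markers (median 0.83), and S100a9 the 1 rise among 6 mast cell and neutrophil markers (median 0.83).

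**Figure D4:**
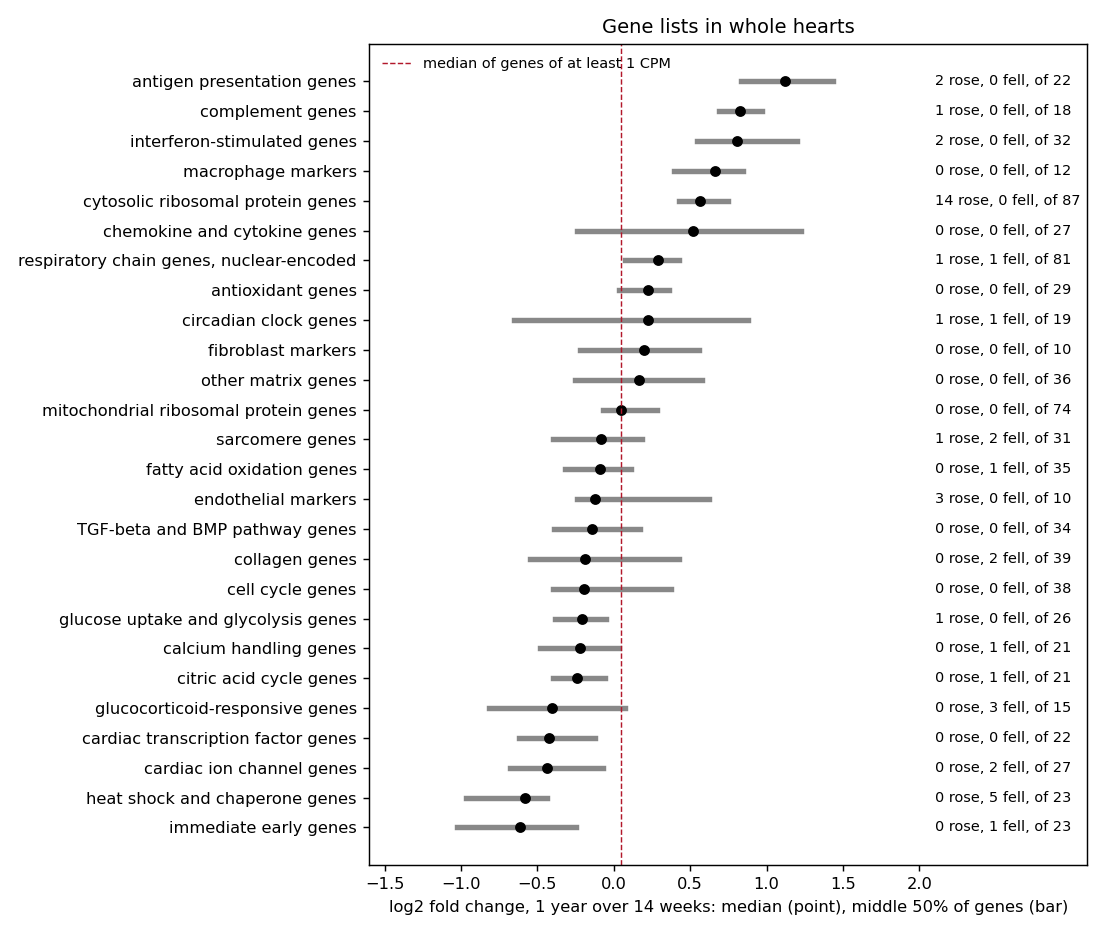
For 26 gene lists, the point is the median log2 fold change of 1 year over 14 weeks and the bar the middle 50% of genes, with the counts of rises and falls at the right. Immune lists and ribosomal proteins lie to the right of the dashed line, and immediate early, chaperone, and ion channel genes to its left. The legend names genes of at least 1 CPM, but the line is the median over all genes tested (0.05).

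Shares of all counts give the same 6 hearts as whole libraries. Ribosomal protein genes took 1.24%, 1.04%, and 1.18% of the counts at 14 weeks and 1.88%, 1.76%, and 1.59% at 1 year. The means were 1.15% ± 0.101 (SD, n = 3) and 1.74% ± 0.147 (SD, n = 3), without overlap (exact two-sided permutation test, p = 0.1, the smallest that 3 against 3 allows). The mitochondrial genome took 30.6% ± 3.51 (SD, n = 3) at 14 weeks and 31.8% ± 2.23 (SD, n = 3) at 1 year (exact permutation p = 0.7). Sarcomere genes took 8.59% ± 0.0496 (SD, n = 3) and 8.33% ± 0.339 (SD, n = 3; exact permutation p = 0.4), and collagens 0.144% ± 0.0322 (SD, n = 3) and 0.1% ± 0.0111 (SD, n = 3; exact permutation p = 0.2). The nuclear respiratory chain took 4.66% ± 0.218 (SD, n = 3) and 5.29% ± 0.474 (SD, n = 3; exact permutation p = 0.3). Immunoglobulin genes rested on 0.00117% and 0.00169% of the counts (exact permutation p = 0.1), and red cell genes on 0.0285% and 0.0452% (exact permutation p = 0.2). Adjusted over these 7 classes, p lay between 0.35 and 0.7, and the design cannot bring any class under 0.1.

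The neighboring ages place some of these changes, with the values of each age side by side. C4b was at 7.44, 8.98, and 12.3 CPM at 4 weeks and 34, 43, and 25 at 1.5 years. H2-Eb1 was at 51.1, 38, and 48.1 CPM at 4 weeks and 89.5, 141, and 141 at 1.5 years. For both genes the samples of 1.5 years, like those of 1 year, lay above all samples of 14 weeks. Cdkn1a was at 62, 52.8, and 53 CPM at 1.5 years, and Acta1 at 401, 317, and 390.4. These levels lay above every sample of 1 year, as did those of Serpinh1 (324, 363, and 404 CPM). Sik1 remained low at 1.5 years, at 18.3, 22.5, and 23.9 CPM, and Col4a1 was at 249.7, 262, and 152. The Y-linked gene Ddx3y was at 35.5 CPM or more in the hearts of 14 weeks and 1 year and at most 0.397 CPM at 1.5 years. By this gene, the hearts of 1.5 years differed in sex from those of 14 weeks and 1 year. Sex and age therefore cannot be told apart in any comparison with 1.5 years, here or for the clock genes. Ddx3y also varied among the hearts of 4 weeks (33.9, 6.42, and 1.64 CPM) and of postnatal day 1 (4.58, 26.6, and 16.3 CPM). Values of these ages carry the same limit. The fit over all 15 hearts has age as its only factor, so its spread takes in such differences at the other ages.

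**Figure D5:**
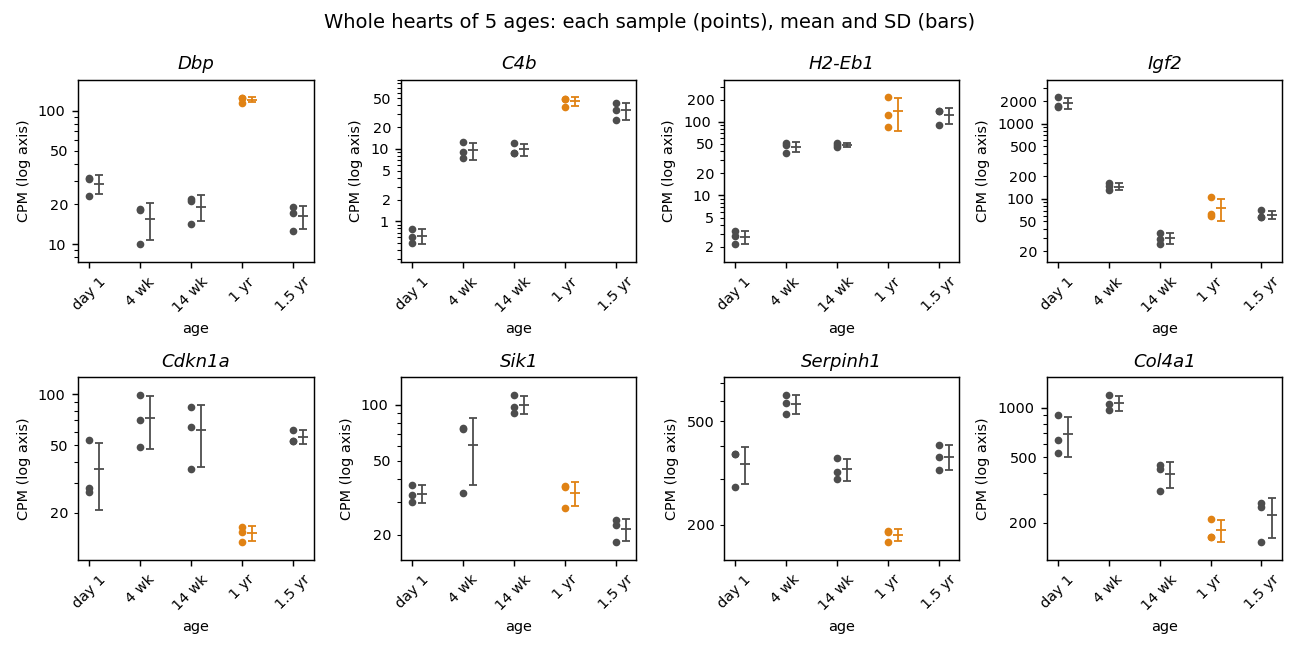
Points are single whole hearts in CPM on a log axis at 5 ages (postnatal day 1, 4 and 14 weeks, 1 and 1.5 years), with the mean and SD beside them and 1 year in orange. C4b and H2-Eb1 at 1.5 years lay above 14 weeks, whereas Dbp, Cdkn1a, and Serpinh1 at 1 year lay apart from both 14 weeks and 1.5 years. The hearts of 1.5 years also differed in the Y-linked gene Ddx3y, so sex and age cannot be told apart there. Ddx3y varied among the hearts of postnatal day 1 and of 4 weeks as well.

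The change in whole hearts was set against that in PDGFRα cardiac fibroblasts sorted from hearts at the same ages, with 2 samples each. The test of the difference called 355 of 20650 genes (1.72%), 97 with the heart change above the fibroblast change (0.47%) and 258 below it (1.25%). Of the 175 genes of whole hearts, whose test rests on the same hearts, 64 passed it. Without the samples 1, 2, and 3 of 14 weeks the test called 172, 262, and 134 genes, and without those of 1 year 180, 156, and 225. Scaling by library size alone turned the split to 146 above and 53 below and moved the median difference over all genes to 0.30. Serpinh1, which fell in hearts, was at 946 and 890.4 CPM at 14 weeks and 2247 and 1904 CPM at 1 year in fibroblasts, where the log2 fold change came to 1.24 (adjusted p = 0.0036). The difference was -2.07 (SE 0.28, adjusted p = 2.93e-04). Phlda1 was at 137 and 151 CPM at 14 weeks and 337 and 329.7 CPM at 1 year in fibroblasts, with a difference of -2.64 (SE 0.30, adjusted p = 5.29e-05). Tnfrsf12a was at 7.24 and 8.94 CPM at 14 weeks and 23.3 and 28.4 CPM at 1 year, with a difference of -3.08 (SE 0.38, adjusted p = 1.38e-04). Fibroblasts of 1 year thus had more of these 3 transcripts and whole hearts less, each past its threshold in both tissues. All 3 were named for their small p in this test, so their differences are a description.

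Clock genes differed between the tissues as well. Arntl in fibroblasts was at 23.6 and 35.9 CPM at 14 weeks and 65.1 and 56.8 CPM at 1 year, and Dbp at 91 and 74.7 CPM at 14 weeks and 25.2 and 30.4 CPM at 1 year. The differences were -5.37 (SE 0.70, adjusted p = 2.70e-04) for Arntl and 4.19 (SE 0.63, adjusted p = 0.00114) for Dbp, although neither change passed in fibroblasts on its own. Type IV collagen was at higher levels in fibroblasts of 1 year in both samples, with Col4a1 at 3090.5 and 3327 CPM at 14 weeks and 5365 and 4601 CPM at 1 year and a difference of -1.83 (SE 0.32, adjusted p = 0.00465). For Cdkn1a the fibroblasts were at 129 and 141 CPM at 14 weeks and 205 and 191 CPM at 1 year, and the difference was -2.62 (SE 0.46, adjusted p = 0.00465). Sorting and digestion apply to the fibroblasts only, so their part in these differences cannot be told apart from that of the tissue. The labels give no hour of collection for the fibroblasts either. The hour therefore cannot be told apart from the tissue and the age in any of these differences.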

How the data were processed

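RNA-Seq of 6 whole hearts was analysed, 3 of 14 weeks and 3 of 1 year, which the study gives as separate animals. The authors isolated RNA with the RNeasy Mini kit, mapped single-end reads to mm10 with STAR 2.5.3a, and deposited raw counts per gene from its GeneCounts mode, without normalization. Neither the strand column nor the annotation used for counting is given in the sources used here.

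Counts were tested with edgeR 4.0.16 (R 4.3.3) after filterByExpr and TMM scaling, with all 15 whole hearts and age as the only factor. Genes passed below 0.05 after Benjamini-Hochberg adjustment. The SE is the absolute log2 change over the root of F. Tissues were compared by an interaction term over all 27 samples. Shares of counts were tested by exact permutation (scipy 1.17.1). Coordinates and transcript lengths came from GENCODE M21 (95.4% of symbols matched), and promoter windows from RefSeq. Scripts were tested on simulated data.

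Named genes are the 8 largest and the 5 most significant changes in each direction, up to 3 calls of each of 54 gene lists, genes the study names, and the 5 most significant tissue differences. Other genes were named after their values were seen, and 5 lists were added then. All members and lists were chosen with earlier results of these data known. Alternatives were DESeq2 1.42.0, other scalings and filters, a 2-fold minimum, only the 2 ages, a replicate block, a transcript length offset, no mitochondrial genes, and leaving out each heart. Leaving out postnatal day 1, and 2 variants of the 2-age fit, were added after the data were seen. No pair of samples held identical counts. Of the clock list, 1 gene counted in its totals is not reported here.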

Additional observations from a re-analysis of the deposited data

Results flagged for a closer look

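For 29 of the genes named by rule, the change from 14 weeks to 1 year differed between whole hearts and cardiac fibroblasts in a test of the difference itself (edgeR's interaction term, adjusted p under 0.05, where 1.72% of 20650 genes passed). The named genes include 5 chosen for the smallest p in this same test (Arntl, Phlda1, Tnfrsf12a, Serpinh1, and Rps3a1), so nothing is read from their number against that share. The values are the log2 fold change in whole hearts minus that in fibroblasts, so that a negative value means a lower change in hearts. The fibroblast side rests on 2 samples per age.

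The change passed its own threshold in opposite directions in both tissues for 4 genes. The differences were -2.64 for Phlda1, -3.08 for Tnfrsf12a, -2.07 for Serpinh1, and 1.60 for Rps3a1. The first 3 fell in hearts and rose in fibroblasts, and the ribosomal protein gene Rps3a1 rose in hearts and fell in fibroblasts.

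Clock, signalling, and membrane genes that fell in hearts, and had not passed in fibroblasts, had differences of -5.37 for Arntl, -2.76 for Sik1, -2.75 for Adam19, -2.65 for Irs2, -2.62 for Cdkn1a, -2.38 for Errfi1, -2.26 for Ckap4, -2.12 for Rcan1, -2.02 for Gja1, and -1.54 for Dusp1. Among chaperone, transporter, and basement membrane genes the differences were -1.67 for Hspb1, -1.35 for Bag3, -1.24 for Slc16a1, -1.83 for Col4a1, and -1.81 for Col4a2. For genes that rose in hearts they were 4.19 for Dbp, 3.25 for Neat1, 2.63 for Firre, 2.11 for Igf2, 1.97 for Pdlim3, 1.96 for Inmt, and 1.42 for Rps24. Inmt was higher at 1 year in both tissues, without passing in fibroblasts.

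In 3 more genes the whole heart change had not passed. Pink1, a kinase gene of mitochondrial quality control, differed by -1.05, and Col1a1 by -1.30. Both had higher means in fibroblasts of 1 year and lower means in whole hearts. Nppa differed by 9.46, but it is a cardiomyocyte gene with 0 counts in both fibroblast samples of 1 year, so this fitted value depends on the prior count and is no measure of size.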

How the results depend on the processing

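The count of 175 genes was 856 with DESeq2, 87 with scaling by library size alone, 342 with a filter of at least 10 counts in every sample, 81 with a 2-fold minimum, 1458 with only the 2 ages, and 77 without postnatal day 1. In the 2-age fit it was 1852 without the third sample of 1 year and 952 with library size alone. It was 158 with median-of-ratios factors, 154 with no filter, 143 with the length offset, and 175 without mitochondrial genes. With 1 heart left out it lay between 7 and 77. The count for the tissue difference (355) was 996 with DESeq2, 199 with library size alone, 1598 with only the 2 ages, and between 134 and 262 with 1 heart left out. The causes were not tested. No call changed direction. Of 91 genes named by rule 56 had passed, and leaving out 1 heart ended between 25 and 49 of these calls, library size alone 14, and the length offset 21.

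Samples of the 2 ages with the same number did not deviate together (r of deviations from the age means -0.01, -0.03, and -0.04). These values show no pairing by number, and whether the numbers mark a shared preparation was not tested. With the replicate number as a block 45 genes passed, and 64 with the block and the length offset, and the block ended 31 of the 56 named calls. No paired analysis was possible for the tissue difference because the sample numbers of fibroblasts and hearts do not match.

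Without mitochondrial genome genes in the total, the difference in share (1 year minus 14 weeks) was 1.06 percentage points for the respiratory chain, 0.904 for ribosomal proteins, and 0.000779 for immunoglobulins. With 1 heart left out, the differences of the 7 classes ranged from -0.212 to 3.19 (mitochondrial genome), 0.482 to 0.899 (respiratory chain), 0.521 to 0.668 (ribosomal proteins), -0.441 to -0.109 (sarcomere), -0.0626 to -0.0344 (collagens), 0.00039 to 0.000597 (immunoglobulins), and 0.00895 to 0.0231 percentage points (red cell genes).

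Changes in genes of a few counts per heart cannot be ranked by size at this depth.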

Other observations

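Several called genes outside the gene lists act at the cell surface or in the cytoskeleton, and those given here were chosen after their values were seen. Pcdh12, a protocadherin of endothelial cells, measured 29.7, 29.1, and 27.1 CPM at 14 weeks and 9.26, 10.3, and 9.71 CPM at 1 year (log2 fold change -1.55, SE 0.27, adjusted p = 0.0178). Adam19, a membrane-bound metalloprotease, measured 78.1, 58.9, and 88.8 CPM at 14 weeks and 25.5, 13.1, and 28.8 CPM at 1 year (log2 fold change -1.75, SE 0.32, adjusted p = 0.0208). Itga9, an integrin chain that binds matrix proteins, measured 66.9, 77.6, and 75.8 CPM at 14 weeks and 32.7, 38, and 33.4 CPM at 1 year (log2 fold change -1.08, SE 0.18, adjusted p = 0.0107). In each of these genes the older hearts lay below all younger ones. Dag1 encodes dystroglycan, which ties the cytoskeleton to the basement membrane, and measured 490.2, 447, and 558 CPM at 14 weeks and 211, 206, and 282 CPM at 1 year (log2 fold change -1.09, SE 0.23, adjusted p = 0.0321). Jup, the plakoglobin gene of desmosomes and adherens junctions, measured 297, 282, and 298 CPM at 14 weeks and 179, 192, and 210.3 CPM at 1 year (log2 fold change -0.59, SE 0.13, adjusted p = 0.0431). Colq, which anchors acetylcholinesterase in the matrix, measured 10.7, 16.5, and 14.2 CPM at 14 weeks and 4.94, 3.26, and 5.68 CPM at 1 year (log2 fold change -1.58, SE 0.33, adjusted p = 0.0322). These 3 genes were also apart between the ages.

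Among the rises outside the lists, Vim, the intermediate filament of mesenchymal cells, measured 252, 209, and 198 CPM at 14 weeks and 426, 365, and 371 CPM at 1 year (log2 fold change 0.82, SE 0.16, adjusted p = 0.0273). Tmsb4x, the actin-sequestering thymosin β4, measured 211, 196, and 186 CPM at 14 weeks and 361, 329.6, and 292 CPM at 1 year (log2 fold change 0.73, SE 0.16, adjusted p = 0.0453). Rarres2, the gene of the chemoattractant chemerin, measured 28.5, 20.2, and 27.2 CPM at 14 weeks and 59.3, 55.2, and 44.9 CPM at 1 year (log2 fold change 1.07, SE 0.22, adjusted p = 0.0339). No older heart overlapped with a younger one in these genes. Slc26a10, of a family of anion transporters, measured 13, 15.1, and 9.91 CPM at 14 weeks and 25.7, 39.8, and 86.8 CPM at 1 year (log2 fold change 2.00, SE 0.36, adjusted p = 0.0208), with sample 3 of 1 year far above the other samples.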
